A study of Mus musculus with 4 samples.

Results

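Genes that mark neurons of the olfactory bulb and of its sensory input were followed in RNA that the labels call prefrontal cortex. The set was fixed by name: Eomes, Tbx21, Doc2g, Cdhr1, Scgn, Pbx3, Tshz1, Lgr5, S100a5 and Npffr2, taken with every non-control probe that carries one of these symbols. All 10 were measured on every array, out of 20655 genes so measured, and 14 of their 15 probes were well above background on all 4 arrays. The genes were chosen by bulb identity together with values of these same arrays, their changes with diet, which were known beforehand, so their levels and changes are a description and are not tested.

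Each of the 4 arrays held 1 group of 3 month-old B6J mice. The groups were wild-type mice on a starch diet, wild-type mice on a sucrose diet, Glo1 heterozygous mice on starch and Glo1 heterozygous mice on sucrose, and the diets ran for about 70 days from postnatal day 21. Glo1 encodes glyoxalase 1, which clears the sugar by-product methylglyoxal; the labels give neither the kind of Glo1 allele nor the sex of the mice. They do not say how the prefrontal cortex was cut from the neighbouring olfactory bulb either, so how much bulb tissue a pool held is unknown. RNA of 3 mice was pooled for each array, so each group is a single measurement, the spread between mice cannot be seen, and no change has a p-value. All groups share the strain, the age and the dissection site, and because every group sat at its own place on 1 slide, place and group cannot be told apart.

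The olfactory bulb lies at the front of the forebrain, directly ahead of the prefrontal cortex. Axons of olfactory sensory neurons in the nose end in the glomeruli of the bulb, where they contact mitral and tufted cells, the glutamatergic output neurons. GABAergic interneurons surround these: periglomerular cells, some of them dopaminergic, around the glomeruli and granule cells in the core, both renewed by neuroblasts that migrate into the bulb in adult mice. Eomes (also called Tbr2) and Tbx21 (T-bet) are T-box transcription factors of mitral and tufted cells, and are known as well from T lymphocytes and natural killer cells. Cdhr1 is a cadherin of mitral and tufted cells and of photoreceptors, and Doc2g is a double C2 domain protein. Scgn encodes the calcium sensor secretagogin, Pbx3 a homeobox factor, Tshz1 a zinc finger factor of granule cells, and Lgr5 a receptor for R-spondins. S100a5 encodes a calcium-binding protein of olfactory sensory neurons, and Npffr2 a receptor for neuropeptide FF.

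A level here is the background-subtracted fluorescence of a probe divided by the 75th percentile of its array, and the 4 levels of a probe are always given in the order wild-type starch, wild-type sucrose, heterozygous starch, heterozygous sucrose. A change is a difference of log2 levels, so that 1 is a doubling. Levels of different probes are not on a common scale, because each probe binds with its own strength, and are not ranked against each other. A gene with several probes is represented by its brightest. The 75th percentiles were 1780 to 1929 intensity units, 77.6% to 80.2% of spots were well above background, no spot was saturated, and the medians of the negative controls were 2.4 to 2.91 units. Glo1, on chromosome 17, followed its labels: its 3 probes were lower on both heterozygous arrays, by -0.6 to -0.56 on starch and by -0.87 to -0.83 on sucrose.

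The array reads each gene through probes of 60 bases. The 4 shown belong to S100a5, Doc2g, Scgn and Npffr2, whose changes with sucrose in wild-type mice ranked 1, 7, 8 and 12 from the lowest of all genes; coordinates are on build mm9, and letters are 5′ to 3′ as the scanner files give them. The S100a5 probe lies on chromosome 3, 90415491 to 90415550. The Doc2g probe covers chromosome 19, 4006386 to 4006557, and the Scgn probe chromosome 13, 24054004 to 24054661, spans of 172 and 658 bases that are longer than the probes, so each joins bases that are apart in the genome. The Npffr2 probe lies on chromosome 5, 90011749 to 90011808. No annotation of mm9 was used here, so exons are not named.
S100a5: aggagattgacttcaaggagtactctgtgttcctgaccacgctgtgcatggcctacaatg
Doc2g: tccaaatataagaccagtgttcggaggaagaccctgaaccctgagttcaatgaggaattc
Scgn: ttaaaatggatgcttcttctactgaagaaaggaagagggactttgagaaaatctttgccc
Npffr2: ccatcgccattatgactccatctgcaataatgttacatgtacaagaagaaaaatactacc

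All 10 genes had their lowest level on the wild-type sucrose array and their next lowest on the heterozygous sucrose array. The same order held for 14 of the 14 probes measured on all arrays, and 2026 of all 20655 genes (9.81%) show it. In bulk RNA, fewer cells of a type in the piece of tissue and less RNA per cell cannot be told apart. In wild-type mice 8 of the 10 genes were lower by 2-fold or more on sucrose and none was higher. Over all genes 0.992% were lower and 0.484% higher by that much, and since the genes were chosen with this contrast known, nothing is read from the difference. The median change of the 10 genes was -2.32, from -4.8 for S100a5 to -0.51 for Tshz1, while the middle 95% of all genes lay between -0.69 and 0.57. Normexp is a background correction that models the signal left after subtraction of the local background, and here adds 50 units to each signal. With normexp the median was -1.42 with 7 genes past 2-fold, beside 0.51% of all genes in both directions together. With probes above the median signal only, which leaves 6 of the genes, it was -1.47 with 4 past 2-fold, beside 0.5%.

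**Figure D1:**
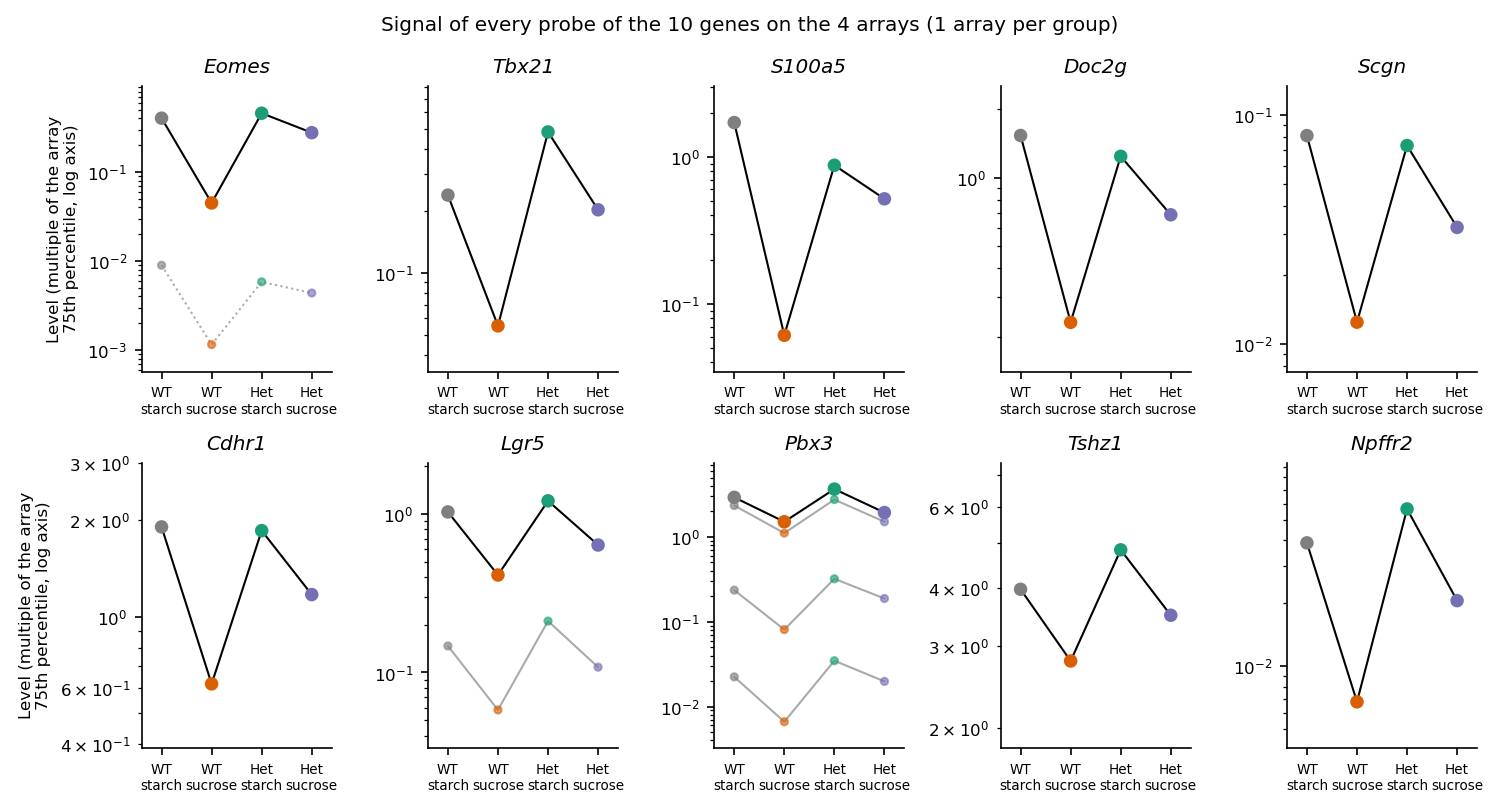
Levels of all 15 probes of the 10 genes on the 4 arrays, as multiples of each array's 75th percentile on log axes, with 1 point per array and lines that only join the points of a probe (black, brightest probe; grey, other probes; dotted, the second Eomes probe, well above background on the wild-type starch array alone). Each brightest probe is lowest on wild-type sucrose and next lowest on heterozygous sucrose.

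Among the mitral and tufted cell genes, Eomes stood at 0.403, 0.0449, 0.458 and 0.277 (chromosome 9, 118394425 to 118394484, probe A_55_P2150717). Both starch arrays were thus close to each other, and sucrose left 11.1% of the starch level in wild-type mice and 60.4% in heterozygotes. The changes with sucrose were -3.17 and -0.73, and Eomes had the fourth lowest wild-type diet change of all genes, at rank 4. With normexp its wild-type change was -2.33. A second Eomes probe, A_66_P137763, reads the transcript NM_001164789 and was well above background on the wild-type starch array only. There it was at least 1.62-fold higher than on wild-type sucrose and at least 1.34-fold higher than on heterozygous starch. Each bound compares it with the lowest signal that any well-measured probe had on the other array, or with its own signal there if that was higher.

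Tbx21 read 0.238, 0.0552, 0.482 and 0.202 (chromosome 11, 96959417 to 96959476). It was the only one of the 10 genes past 2-fold between the starch arrays, with a change of 1.02 in heterozygous against wild-type mice. With sucrose it was lower by 2-fold or more in both genotypes, at -2.11 and -1.26. The heterozygous sucrose array, at 0.202, was below the wild-type starch array, at 0.238, by less than either diet difference.

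Doc2g had levels of 1.53, 0.232, 1.24 and 0.687, which is 15.2% of the starch level in wild-type mice and 55.4% in heterozygotes. Its diet changes were -2.72 and -0.85. Cdhr1 (chromosome 14, 37891387 to 37891446) had levels of 1.9, 0.617, 1.85 and 1.17 and diet changes of -1.62 and -0.66. The starch arrays were near each other for both genes, at -0.31 for Doc2g and -0.04 for Cdhr1 in heterozygous against wild-type mice. Taking the 4 mitral and tufted cell genes as a group, the median diet change was -2.42 in wild-type mice, with 4 past 2-fold lower, and -0.79 in heterozygous mice, with 1. Over all genes 0.992% and 0.479% were past 2-fold lower in these comparisons.

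The genes of bulb interneurons ran from a large difference to a small one. Scgn had levels of 0.0811, 0.0124, 0.0734 and 0.0322 and diet changes of -2.71 and -1.19. It was past 2-fold in both genotypes, and the starch arrays differed by -0.14. Its probe is dim, and with normexp the changes were -1.28 and -0.69, the second no longer past 2-fold.

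Lgr5 read 1.03, 0.412, 1.21 and 0.637 with its brightest probe (chromosome 10, 114887403 to 114887462), a diet change of -1.33 in wild-type mice and -0.93 in heterozygotes. Its second probe, A_66_P108922, gave -1.34 and -0.96. For diet the probes thus differed from each other by less than the scanner's own error for a change (0.2 to 0.21). For genotype they were further apart, at 0.23 and 0.52 on starch and at 0.63 and 0.89 on sucrose.

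Pbx3 had levels of 2.93, 1.51, 3.67 and 1.94 (chromosome 2, 34026999 to 34027058), or -0.95 and -0.92 with sucrose. Its 3 other probes were lower with sucrose as well, by -1.76, -1.08 and -1.54 in wild-type mice and by -0.81, -0.87 and -0.77 in heterozygotes. The mean of its probes gave -1.33 in wild-type mice, past 2-fold where the brightest probe alone was not, and -0.84 in heterozygotes. Tshz1 (chromosome 18) read 3.98, 2.79, 4.84 and 3.5, with diet changes of -0.51 and -0.47. Tshz1 and the brightest Pbx3 probe thus changed by nearly the same size in both genotypes, while the Pbx3 probes at -1.76 and -1.54 did not. The 4 interneuron genes had a median diet change of -1.14 in wild-type mice, with 2 past 2-fold lower, and -0.92 in heterozygous mice, with 1, beside the same 0.992% and 0.479% of all genes.

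S100a5 stood at 1.71, 0.0612, 0.876 and 0.518. On wild-type sucrose it was at 3.59% of its starch level, a change of -4.8 or 27.9-fold, the lowest diet change of all 20655 genes in wild-type mice. In heterozygous mice sucrose left 59.2%, a change of -0.76. With normexp the wild-type change was -4.03. It was also the member with the largest difference downward between the starch arrays, at -0.96.

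Npffr2 read 0.0389, 0.00676, 0.0565 and 0.0206, with diet changes of -2.52 and -1.46. On the wild-type sucrose array its probe had 12.9 intensity units, where the median negative control had 2.4. The scanner's error for its wild-type change was 0.34, against 0.2 to 0.25 for the other 9 genes. With normexp its changes were -0.88 and -0.68, so neither passed 2-fold.

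The diet changes in heterozygous mice were smaller: 3 of the 10 genes (Npffr2, Tbx21 and Scgn) were lower by 2-fold or more and none was higher. Over all genes 0.479% were lower and 1.29% higher. The median of the 10 was -0.89, and the middle 95% of all genes ran from -0.53 to 0.71. All 10 lay below 0, as did 49.9% of all genes. These 3 genes were past 2-fold lower in both genotypes, as were 23 of all 20655 genes (0.111%). With normexp 1 of the 10 genes, Tbx21 at -1.13, was past 2-fold in heterozygous mice, beside 0.73% of all genes in both directions together.

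**Figure D2:**
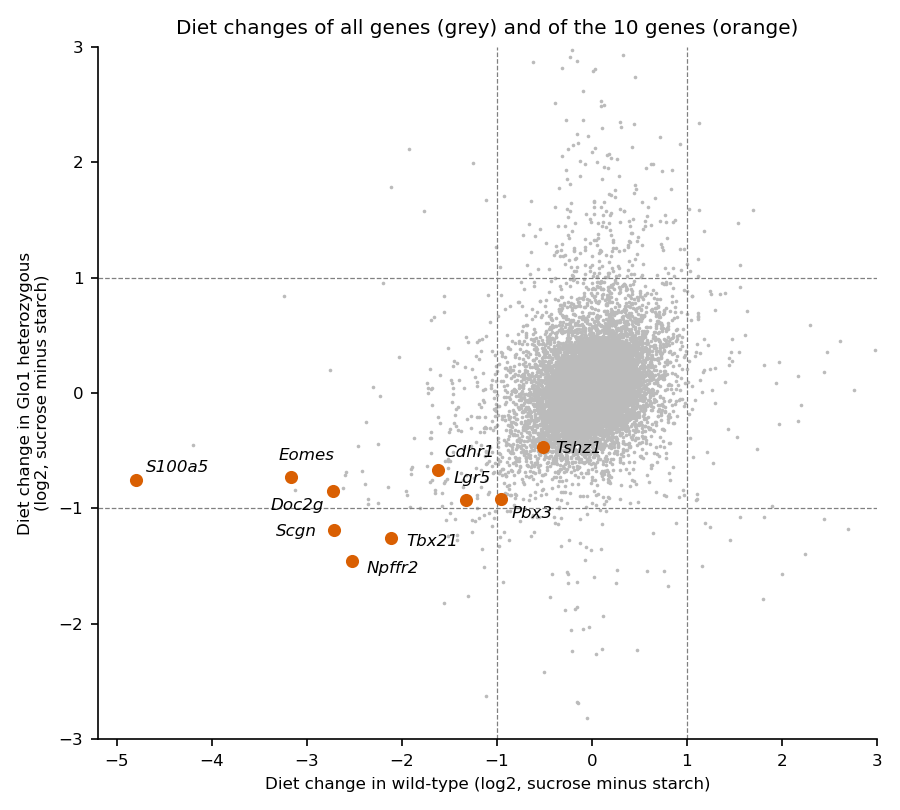
Diet change (log2, sucrose minus starch) in wild-type mice on the x axis and in Glo1 heterozygous mice on the y axis for each gene (grey) and the 10 genes (orange, named), with dashed lines at 2-fold; 30 genes lie outside the axes. The 10 genes are all at lower left, from Tshz1 at -0.51 and -0.47 to S100a5 at -4.8 and -0.76.

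Between the genotypes on starch, the 10 genes showed no common direction: 6 were higher and 4 lower in heterozygous mice, with a median of 0.21. Of all genes 54% were lower. Tbx21 was past 2-fold higher, and none was past 2-fold lower; over all genes 0.344% were higher and 0.47% lower. With quantile normalization Tbx21 came just short of 2-fold, and with normexp it was at 0.90. S100a5 and Doc2g were the lowest, at -0.96 and -0.31, and Tbx21 and Npffr2 the highest, at 1.02 and 0.54.

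On sucrose all 10 genes were higher in heterozygous than in wild-type mice, with a median of 1.47. Of these, 6 were higher by 2-fold or more, namely S100a5 (3.08), Eomes (2.62), Tbx21 (1.87), Npffr2 (1.61), Doc2g (1.56) and Scgn (1.38). Cdhr1 (0.92), Lgr5 (0.63), Pbx3 (0.36, or 0.90 with the mean of its probes) and Tshz1 (0.33) were not. Over all genes 1.37% were higher and 0.349% lower by 2-fold or more, and 54.9% were below 0. With normexp the median was 0.72, S100a5 was at 2.41 and Eomes at 1.85, and Scgn (0.48) and Npffr2 (0.38) were below 2-fold.

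The interaction, the heterozygous diet change less the wild-type one, was above 0 for all 10 genes, with a median of 1.01, and at or above 1 for S100a5 (4.04), Eomes (2.44), Doc2g (1.87), Scgn (1.52) and Npffr2 (1.07), 5 of the 10. Over all genes 2.08% were that high, 0.794% were as far below 0, and 49.5% were below 0 by any amount. It was 0.05 for the single Tshz1 probe, within the scanner error of 0.29, and intermediate for Cdhr1 (0.96), Tbx21 (0.85) and Lgr5 (0.4). For Pbx3 it depended on the probe: the brightest gave 0.04, the other 3 gave 0.95, 0.22 and 0.77, and the mean of the probes gave 0.49. With normexp the median was 0.52 and 3 of the 10 genes had an interaction of 1 or more, beside 1.1% of all genes past 1 in both directions together. The normexp interaction of Pbx3 was -0.02, and those of S100a5, Eomes, Scgn, Npffr2 and Tbx21 were 3.32, 1.68, 0.59, 0.20 and 0.45. With probes above the median signal the median over 6 genes was 0.68. The wild-type diet change, the genotype change on sucrose and the interaction all use the wild-type sucrose array, on which each of the 10 genes was lowest, so they are not separate evidence.

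**Figure D3:**
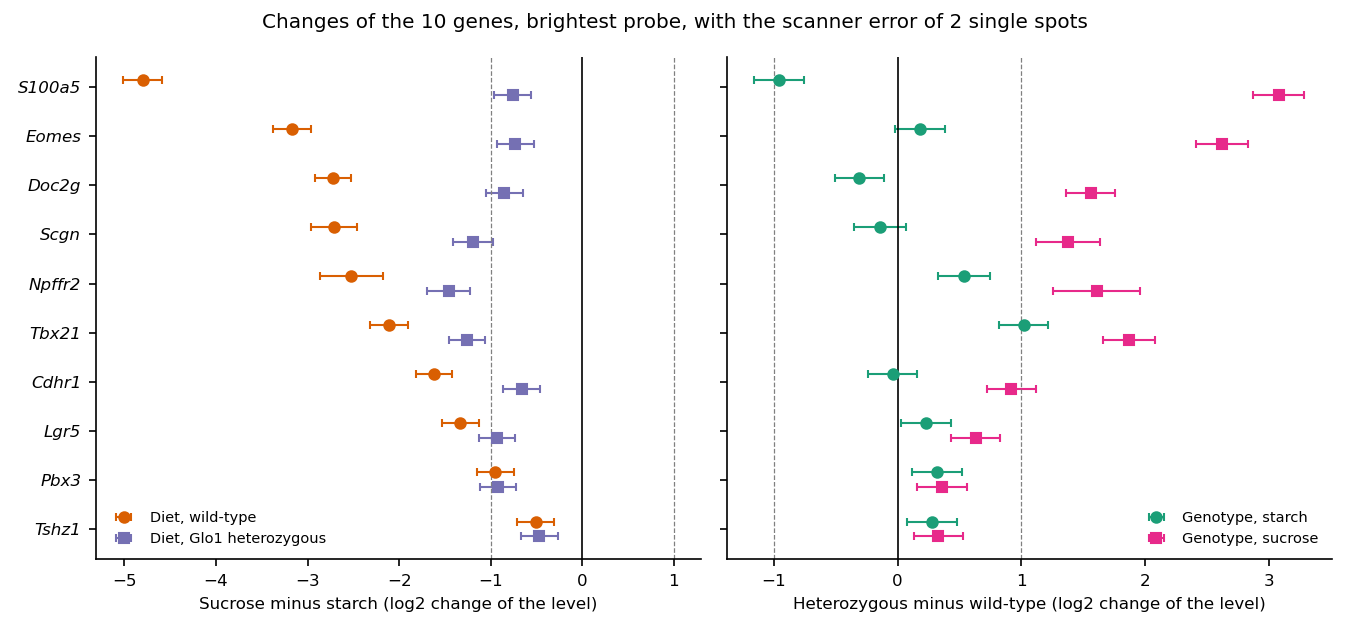
Log2 changes of the 10 genes with sucrose (left) and with the heterozygous genotype (right); bars are the scanner's error of a difference between single spots, which holds no spread between mice, and dashed lines mark 2-fold. The diet changes of S100a5, Eomes and Doc2g differ widely between the genotypes, while those of Tshz1 and of the brightest Pbx3 probe, the one plotted, overlap.

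The error bars here come from the scanner software and cover the reading of a spot only. They were 0.2 to 0.35 for the changes of the brightest probes, smaller than the wild-type diet changes of all 10 genes. Dim probes scatter more between these arrays: of 4 equal classes of probes by brightness, 2.97% of the dimmest were past 2-fold with diet in wild-type mice, then 1.4%, 0.684% and, among the brightest, 0.209%. Scgn and Npffr2 lie in the dimmest class and Eomes and Tbx21 in the next. S100a5, Doc2g, Cdhr1 and Lgr5 lie in the class above, and Pbx3 and Tshz1 in the brightest.

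Other genes of the bulb and of neighbouring cell types were read from lists written with earlier results of these data known. Of 19 genes of bulb interneurons and their neuroblasts, 18 were below 0 with sucrose in wild-type mice, with a median of -0.37, and 4 were lower by 2-fold or more. Over all genes 50.1% were below 0 and 0.992% lower by 2-fold or more. These were Trh (-2.59), the precursor of thyrotropin-releasing hormone; Th (-2.14), the rate-limiting enzyme of dopamine synthesis; Sp8 (-1.92), a zinc finger factor of periglomerular neuroblasts; and Calb2 (-1.6), the calcium-binding protein calretinin. In heterozygous mice 17 of the 19 were below 0, with a median of -0.43, and none was past 2-fold, where over all genes 49.9% were below 0. On sucrose 3 of the 19, Calb2, Trh and Th, were higher by 2-fold or more in heterozygous than in wild-type mice, by 1.16, 1.16 and 1.15. The median of the list there was 0.17, and 1.37% of all genes were higher by that much.

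Th stood at 4.29, 0.971, 3.77 and 2.15 and Sp8 at 1.97, 0.522, 1.9 and 0.957. Both genes, like the 10, were lowest on wild-type sucrose and next lowest on heterozygous sucrose. The pan-GABAergic genes Gad1 and Gad2, which GABAergic neurons of cortex and striatum use as well, changed by -0.4 and -0.06 in wild-type mice with their brightest probes. The other 3 probes of Gad1 gave -1.16 to -0.63 and the other 2 of Gad2 -0.29 to 0.33. In heterozygotes Gad1 changed by -0.44 (-0.95 to -0.37 with its other probes) and Gad2 by -0.37 (-1.21 to -0.58). Calb1, which is widespread in cortex and striatum, changed by 0.02 in wild-type mice, and by -0.08 to 0.04 with its other probes. In heterozygotes it changed by 0.07, and by 0.07 to 0.15 with its other probes.

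Omp, the olfactory marker protein of mature olfactory sensory neurons, stood apart within its list. It read 1.98, 0.108, 0.984 and 0.721, a change of -4.2 with sucrose in the wild-type and of -0.45 in the heterozygous groups. Its order of arrays was that of S100a5, with wild-type starch highest. The other 7 measured genes of olfactory sensory neurons had no change past 2-fold in any comparison, and the median of the 8 was -0.06 in wild-type mice and -0.07 in heterozygotes. Stoml3 and Rtp1 of that list were not well above background on all arrays.

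Of the other mitral and tufted cell genes, 10 of 11 were measured (Lhx5 was not well above background on all arrays), and their median diet change was -0.02 in wild-type mice and -0.16 in heterozygotes. Nmb, the peptide neuromedin B, was the 1 lower by 2-fold or more in wild-type mice, at 2.62, 0.811, 2.53 and 2.0, a change of -1.69. Nts, the peptide neurotensin, read 0.21, 0.367, 0.511 and 0.161 and was past 2-fold lower with sucrose in heterozygous mice (-1.67), with a change of 0.8 in wild-type mice. Several genes of this list, among them Tbr1, Cck and Reln, are also expressed in cortex; Tbr1 changed by 0.41, Cck by 0.0 and Reln by -0.28 (-0.34 to 0.41 with its other probes) in wild-type mice. Of 8 genes of olfactory ensheathing glia, the glia that wrap the sensory axons, Prss56 (-1.46) was past 2-fold in wild-type mice, and the median of the list was -0.18. Beside these calls, 0.992% of all genes were lower by 2-fold or more with sucrose in wild-type mice and 0.479% in heterozygotes.

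**Figure D4:**
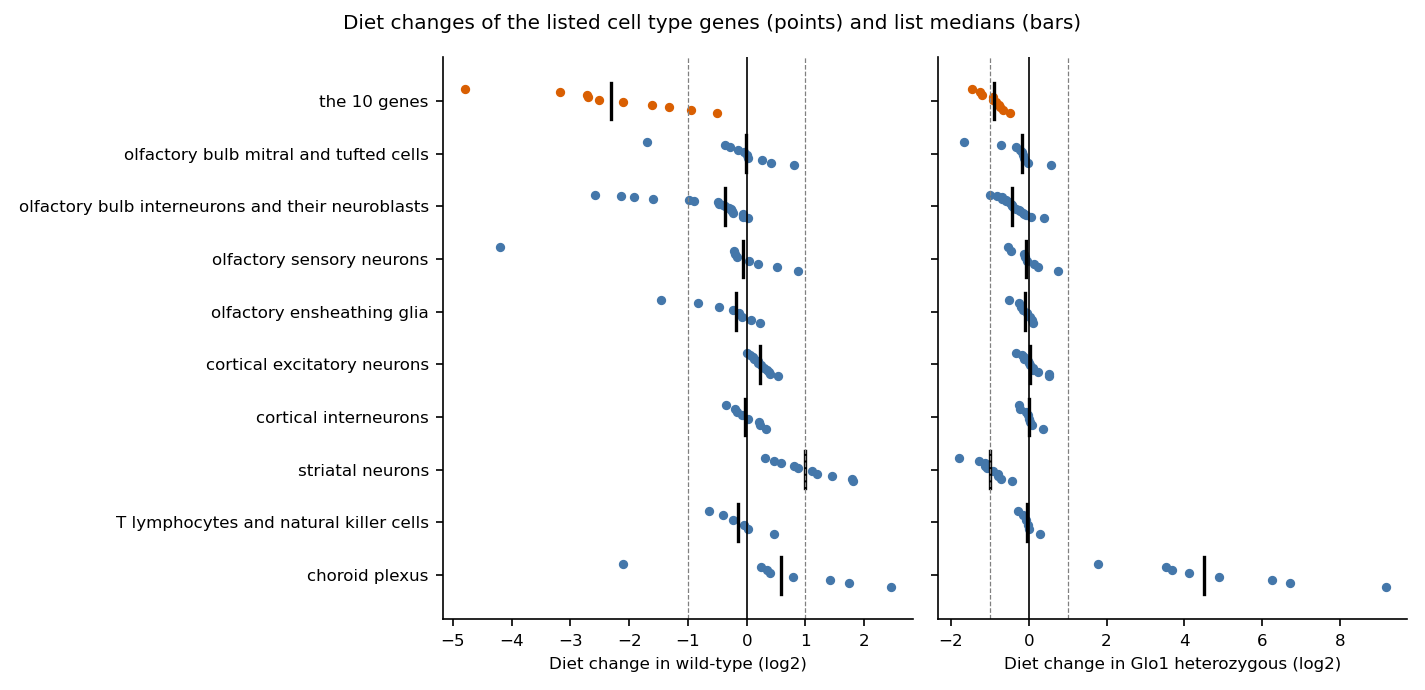
Diet changes (log2, sucrose minus starch) of each measured gene of the cell type lists in wild-type (left) and Glo1 heterozygous mice (right), 1 point per gene, with bars at the list medians and dashed lines at 2-fold. The 10 genes have medians of -2.32 and -0.89, bulb interneuron genes -0.37 and -0.43, striatal genes 0.99 and -0.99, and choroid plexus genes 0.59 and 4.51.

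All 12 listed genes of cortical excitatory neurons were well above background on each array, as were 20655 of the 27248 gene names. The 19 bulb interneuron genes and the 10 striatal genes were as well, so this does not single out the cortex. The median change of the 12 cortical genes was 0.22 with sucrose in wild-type mice and 0.02 in heterozygotes, and none passed 2-fold in a comparison of 2 arrays. Their summed level was 83.6, 109, 99.1 and 106. The summed level of the 19 bulb interneuron genes was 80.7, 65.4, 82.1 and 67.8. The listed mitral and tufted cell genes summed to 149, 151, 148 and 144, the olfactory sensory neuron genes to 25.7, 24.4, 21.4 and 20.7 and the ensheathing glia genes to 40.9, 36.2, 41.1 and 37.6. Such a sum mostly follows its brightest probes, Cck in the mitral and tufted cell list and Gng13 in that of sensory neurons, so the sums of different lists are not compared.

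Genes of structures next to the cortex also differed between the same arrays. The 10 striatal genes had a median change of 0.99 with sucrose in wild-type mice, where 5 were higher by 2-fold or more, and of -0.99 in heterozygous mice, where 5 were lower by that much; over all genes 0.484% and 0.479% were. They had summed levels of 34.2, 56.4, 52.5 and 29.4. Their order of arrays was not that of the bulb genes, since 10 of 10 were higher with sucrose in wild-type mice, where 50.1% of all genes were below 0. On starch 9 of 10 were higher in heterozygous than in wild-type mice, where 54% of all genes were below 0. Drd2 was the exception, at -0.22. Of 9 choroid plexus genes 8 were measured, all higher by 2-fold or more with sucrose in heterozygous mice (1.29% of all genes), with summed levels of 0.911, 2.13, 0.861 and 69.9; Slc4a5 was not well above background on all arrays. The median diet change of the 8 cortical interneuron genes was -0.03 in wild-type mice. The part of such tissue differences in the changes of the 10 genes was not tested.

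Eomes and Tbx21 are also genes of lymphocytes. Of 10 genes of T lymphocytes and natural killer cells 6 were measured, with a median diet change of -0.15 in wild-type mice and -0.04 in heterozygotes and none past 2-fold in any comparison of 2 arrays. Cd3g, Gzmb, Ifng and Ncr1 were not well above background on all arrays. The summed level of the 6 was 18.9, 19.2, 18.2 and 16.5, most of it from Klrb1c.

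To find the genes whose levels ran most like those of the set, the 4 log2 levels of each gene were centred on their mean and compared with the median profile of the 10 genes, which was 0.73, -1.6, 0.9 and -0.04. The 8 nearest genes outside the set were Vipr2, Adamts19, Shisa3, Kcnk15, Frmd7, Cpa6, Th and Hephl1, at distances (Euclidean, log2) of 0.1 to 0.46. Vipr2, a receptor for vasoactive intestinal peptide, was nearest, with levels of 0.792, 0.155, 0.817 and 0.432. Shisa3 followed a like course at 0.538, 0.1, 0.522 and 0.327, and Cpa6, a carboxypeptidase, at 0.205, 0.053, 0.221 and 0.12. Members themselves lay at 0.37 (Doc2g) to 1.76 (S100a5), and 27 other genes were within their median distance of 0.75 and 1750 within that of S100a5. With 4 arrays in all, this is a description of a few points and of nothing shared beyond them.

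Promoter sequence was available for 7 of the 10 genes, from RefSeq on assembly GRCm38.p6, as 250 bases before and 50 after each transcript start. It was searched on both strands because the set holds T-box factors (Eomes, Tbx21) and a Pbx factor. The T-box site AGGTGTGA was in 0 of the 7, against 1.28% of all promoters. Its core GGTGTG, a part of that site, was in those of Cdhr1 and Doc2g, 2 of 7, against 19% of all promoters. The Pbx site TGATTGA (2.7% of promoters) and the Ebf site TCCCNNGGG (6.56%), searched because Ebf factors act in olfactory sensory neurons, were in 0 of the 7. A match is a description of letters, and no match says only that these letters are not in this window.

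The 2 promoters that hold the core are shown as the 250 bases before the start, read on the strand of the gene, with the match in capitals. Both matches read as CACACC, so the core lies on the opposite strand to the gene, at -214 for Cdhr1 and -237 for Doc2g counted from the start. Cdhr1 is on the minus strand, chr14:37098348-37098597, and Doc2g on the plus strand, chr19:4003135-4003384, both on GRCm38.p6, which is another build than that of the probe coordinates.
Cdhr1: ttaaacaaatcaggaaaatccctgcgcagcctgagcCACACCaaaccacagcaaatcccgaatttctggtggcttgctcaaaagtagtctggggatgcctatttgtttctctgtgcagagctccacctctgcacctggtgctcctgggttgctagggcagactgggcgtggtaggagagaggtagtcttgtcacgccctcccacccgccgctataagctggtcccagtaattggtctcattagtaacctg
Doc2g: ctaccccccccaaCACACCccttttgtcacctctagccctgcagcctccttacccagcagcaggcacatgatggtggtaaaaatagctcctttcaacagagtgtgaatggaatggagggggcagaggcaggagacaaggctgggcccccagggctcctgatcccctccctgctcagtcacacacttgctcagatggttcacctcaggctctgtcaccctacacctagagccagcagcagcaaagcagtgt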

How the data were processed

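Per the labels, each array held Cy3-labelled RNA pooled from 3 mice of a group, 200 ng per labelling, on a one-colour Agilent array. The deposited scanner files hold background-subtracted intensity from Agilent Feature Extraction 11.5.1.1 (version per the submitters' processing notes). The authors also deposited 1 ratio per spot, which on comparison was that intensity divided by the array's 75th percentile; no further step of theirs was stated.

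From the intensity, log2 levels relative to the 75th percentile of non-control spots were computed; control spots and outlier spots were left out and spots of a probe averaged. Comparisons used the 42094 of 56605 probes well above background on all 4 arrays, and genes their brightest probe (20655 names as the files give them, entries named only by an accession left out). Each change is a difference of single arrays, with no test. The methods were checked on simulated data. The members and lists were chosen with earlier results of these data known.

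Named genes were the 10 members, Glo1, list genes past 2-fold and the 8 genes nearest in profile. Striatal and choroid plexus genes are mostly given as counts, with Adora2a and Aqp1 as examples. Gad1, Gad2, Calb1, Tbr1, Cck, Reln, Gng13 and Klrb1c fall outside this rule and were named after their values were seen; list genes not well above background are named to account for their lists. All 10 members matched a RefSeq symbol. The 8 alternatives were median scaling, quantile normalization, normexp (offset 50), no filter on dim probes, probes above the median signal, the mean of a gene's probes, outlier spots kept and the authors' deposited ratios. Python 3.11.15, pandas 2.3.3, R 4.3.3 and limma 3.58.1 were used.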

Additional observations from a re-analysis of the deposited data

Results flagged for a closer look

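For 4 of the 10 genes the difference between heterozygous and wild-type mice had opposite signs on the 2 diets, with 1 array per group on each side. S100a5 was at -0.96 on starch and 3.08 on sucrose, 4.04 apart. Doc2g was at -0.31 and 1.56, 1.87 apart, and Scgn at -0.14 and 1.38, 1.52 apart. Cdhr1 was at -0.04 and 0.92, 0.96 apart, and its value on starch lies within the scanner's error for a pair of spots (0.2), as does that of Scgn (0.21). With 1 array per group these differences were not tested.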

How the results depend on the processing

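Of 80 summary values (medians and counts of the 10 genes in 5 comparisons under 8 alternatives), 66 kept their direction and their side of 2-fold, with counts within 1.5 times. The authors' ratios are the same intensity scaled by a constant per array, so they could not move these values. Leaving out the filter on dim probes or keeping outlier spots also left every median and count of the 10 genes as it was. The unchanged values of these alternatives are therefore no separate check. Over the alternatives the median ran from -2.33 to -1.42 for diet in wild-type mice, -0.91 to -0.7 for diet in heterozygous mice, 0.1 to 0.23 for genotype on starch, 0.72 to 1.47 for genotype on sucrose and 0.52 to 1.02 for the interaction. With normexp the count past 2-fold was 1 for diet in heterozygous mice, 0 for genotype on starch and 3 for the interaction, and the medians were 0.72 for genotype on sucrose and 0.52 for the interaction. Under normexp 0.73%, 0.23% and 1.1% of all genes, both directions together, were past 2-fold in these 3 comparisons, fewer than in the report. With probes above the median signal, which leaves out Eomes, Npffr2, Scgn and Tbx21, the counts among the 6 genes left were 4 for diet in wild-type mice, 0 for diet in heterozygous mice, 0 for genotype on starch, 2 for genotype on sucrose and 2 for the interaction, beside 0.5%, 0.51%, 0.15%, 0.53% and 0.68% of all genes, and the medians were 0.78 for genotype on sucrose and 0.68 for the interaction. Quantile normalization gave a count of 0 for genotype on starch, and median scaling a median of 0.98 for the interaction. The interaction of Pbx3 was 0.04, with the opposite sign under normexp (-0.02) and 0.49 with the mean of its probes, which also gave 0.90 for genotype on sucrose, against 0.36. Normexp adds 50 units to each signal, which by arithmetic narrows the changes of dim probes more than those of bright ones. How much of the normexp shifts this makes up was not tested. Apart from the genes left out by the brighter-probe filter, the cause of the other shifts was not tested either. No paired analysis was possible because each group has 1 array and the groups share fewer than 2 replicate numbers. The number of arrays limits the precision: without replicate pools, no difference can be set against the spread between mice.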

Other observations

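Other genes near the profile of the set were read only as values. Adamts19, a secreted metalloprotease, stood at 0.173, 0.0336, 0.215 and 0.11 in the order wild-type starch, wild-type sucrose, heterozygous starch, heterozygous sucrose. Kcnk15, a potassium channel subunit, stood at 0.155, 0.0327, 0.154 and 0.0792, and Frmd7 at 0.103, 0.0167, 0.109 and 0.0615. Hephl1, a multicopper oxidase, stood at 0.029, 0.00824, 0.0328 and 0.0164. All 4 genes were lowest on wild-type sucrose and next lowest on heterozygous sucrose. They were chosen by their distance to the median profile of the 10 genes, so this order is no separate result. Among the striatal genes, Adora2a, the adenosine receptor of indirect pathway neurons, read 0.0861, 0.299, 0.295 and 0.0853. Among the choroid plexus genes, Aqp1, a water channel, read 0.274, 0.0634, 0.274 and 0.946 and was the 1 gene of that list lower with sucrose in wild-type mice.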
